A study of Mus musculus with 11 samples.

Results

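Ung, Hmces, Neil1, Msh6, Apex1 and Polh encode enzymes that act on uracil, abasic sites, oxidised bases and mismatches in DNA. Of these, the handling of uracil, abasic sites and mismatches is used by B cells when they mutate and switch their antibody genes. The 6 genes were chosen by symbol, with earlier results of these data known, and all 6 were among the 10885 genes of the deposited table. They were read in 11 RNA-seq libraries of whole-tissue cells from spleen and lymph node (LN) of 6 mice. Per the labels, 2 mice were knock-ins with BCL2 in the Igk locus of the kappa chain (Igk-BCL2, called KI; mice 5 and 6), 2 carried a BCL2 transgene under the regulatory region 3' of the heavy chain locus (3'RR-BCL2, called Tg; mice 3 and 4), and 2 were wild type (Wt; mice 1 and 2). Every mouse, Wt included, received intraperitoneal sheep red blood cells over 3 months, and tissue was taken 1 month after the third immunisation. LN and spleen were read for every mouse except mouse 3, of which LN alone was analysed here, so each tissue and genotype had 2 libraries except Tg spleen, which had 1. Both regulatory settings, the Igk locus and the 3' heavy chain region, are active in cells of the B lineage, while the RNA came from all cells of the tissue. The labels give no strain, age, sex or litter and do not say whether BCL2 was of human or mouse sequence.

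Somatic hypermutation and class switching start from cytosines that become uracil in immunoglobulin genes of activated B cells, hypermutation above all in germinal centres. Uracil DNA glycosylase (Ung) cuts out the uracil and leaves an abasic site, the AP endonuclease (Apex1) nicks the strand there, and HMCES (Hmces) forms a covalent link with abasic sites in exposed DNA strands and shields them. The mismatch protein MSH6 (Msh6), which works as part of a dimer, reads the mispaired uracil and calls in resynthesis by polymerase eta (Polh), the error-prone polymerase that mutates A:T pairs, while the glycosylase NEIL1 (Neil1) removes oxidised bases.

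The library depths, as reads recovered from the values, lay between 11128568 and 24110325 over the genes of the table. Mouse 1 (Wt) carried Xist at a normalised signal of 14513 in spleen and no Ddx3y, and the other 5 mice carried Ddx3y, so the Wt group mixed sexes. Replicates lay further apart in KI, where log2 differences between the mice of a pair had an SD over genes of 0.918 in LN and 0.903 in spleen, against 0.449 to 0.493 in the Tg and Wt pairs. The mouse gene Bcl2 read between 1246 and 1664 in the 4 KI libraries, between 2065 and 3171 in the 3 Tg libraries and between 2338 and 2716 in the 4 Wt libraries. All KI libraries lay below all Wt libraries, and the Tg range took in the whole Wt range. This gene therefore gave no check of the insertions. Macrophage genes summed to between 9129 and 11772 in the 5 spleen libraries and to between 1318 and 3621 in the 6 LN libraries. No marker of the lists read beside the results was at 0 in all libraries of a group.

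In LN of KI mice, Neil1, Hmces and Polh rose and Apex1 fell against Wt LN. Neil1 was 4.94-fold higher, Hmces 2.80-fold and Polh 2.33-fold, while Apex1 stood at 0.608 times its Wt level. Ung and Msh6 did not pass the test. In all, 3 of the 6 genes were higher and 1 lower, against 13.8% of all genes higher and 12.2% lower (26.0% in all), at an adjusted p under 0.05 by limma on log2(value + 1) with adjustment over the whole table.

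Neil1 (ENSMUSG00000032298) had a normalised signal of 6047 and 4668 in the KI nodes (mice 5 and 6), against 959 and 1203 in the Wt nodes (mice 1 and 2). Both KI nodes lay far above both Wt nodes. The log2 difference was 2.30 ± 0.15 (SE; limma adjusted p = 1.28e-05).

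Hmces (ENSMUSG00000030060) had 2635 and 1837 in KI nodes, against 879 and 699 in Wt nodes. The lower KI node was still well above the higher Wt node, and mouse 5 was the higher of the KI pair. The difference was 1.49 ± 0.18 on the log2 scale (limma adjusted p = 0.00033). The Neil1 and Hmces calls were kept under all 19 alternatives run for this comparison, at adjusted p up to 0.00114 for Neil1 and 0.00758 for Hmces.

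Polh (ENSMUSG00000023953) had 1026 and 802 in KI nodes and 516 and 292 in Wt nodes. The groups did not overlap, but the Wt nodes differed from each other by 0.82 on the log2 scale, the widest gap that any of the 6 genes showed between replicates. The difference was 1.22 ± 0.25 (limma adjusted p = 0.00654), and the call was lost without the LN of KI mouse 5 (1.04, adjusted p = 0.0572), without both tissues of mouse 5 (1.04, adjusted p = 0.0771), without both tissues of mouse 2 (0.81, adjusted p = 0.0526) and with the KI and Wt nodes fitted alone (1.22, adjusted p = 0.0625). Over its 19 alternatives the adjusted p ran from 0.000576 to 0.0771.

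Apex1 (ENSMUSG00000035960) had 171 and 271 in KI nodes, against 382 and 330 in Wt nodes. Both KI nodes were below both Wt nodes, with mouse 5 the lowest library of all 11. The difference was -0.72 ± 0.23 (limma adjusted p = 0.0426). That call was lost under 11 of 19 alternatives, among them edgeR (-0.68, adjusted p = 0.11) and DESeq2 (-0.67, adjusted p = 0.0721) on recovered reads, and it was lost when either Wt mouse (-0.82 and -0.61) or KI mouse 5 (-0.39) was left out; over the 19 the adjusted p ran from 0.0141 to 0.323.

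Ung (ENSMUSG00000029591) had 329 and 302 in KI nodes and 361 and 370 in Wt nodes, a difference of -0.21 ± 0.14 (limma adjusted p = 0.308). Msh6 (ENSMUSG00000005370) had 1612 and 1378 in KI nodes and 1208 and 1122 in Wt nodes, a difference of 0.36 ± 0.16 (limma adjusted p = 0.134). For both genes the libraries of the groups did not overlap, as for 66.8% of all genes, and neither passed the test. Msh6 passed it when libraries were rescaled without immunoglobulin and haemoglobin genes (0.49, adjusted p = 0.0356), a scaling that moved the median of all genes to 0.11, against -0.02 as deposited.

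**Figure D1:**
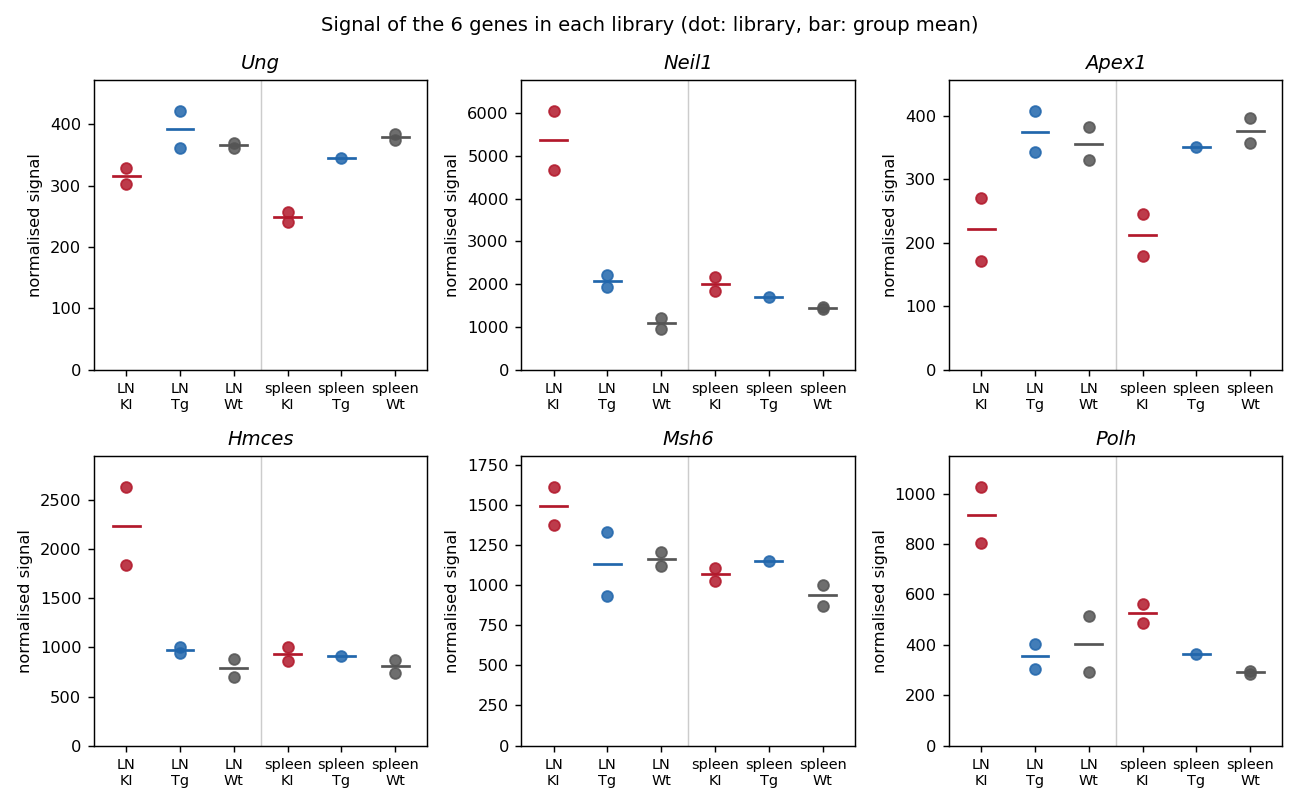
Normalised signal (y axis, linear from 0) of each of the 6 genes in each library, with LN groups left of the line and spleen groups right of it; a dot is 1 library and a bar the group mean. For Neil1, Hmces, Msh6 and Polh the KI nodes are the highest of the 6 groups, with Neil1 at 6047 and 4668, while for Ung and Apex1 the KI groups of both tissues are the lowest.

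The upstream sequences of the 3 genes that rose in KI LN and of Apex1, which fell, are shown because these genes moved together or apart in the same libraries. They are the 170 bases before the start site in RefSeq's GRCm38.p6 promoters, which is another build than the GRCm39 named in the submitters' processing notes. They are written 5' to 3' on the gene's strand, with capitals on matches to the motifs searched.
Neil1 (chr9:57148306-57148475, minus strand): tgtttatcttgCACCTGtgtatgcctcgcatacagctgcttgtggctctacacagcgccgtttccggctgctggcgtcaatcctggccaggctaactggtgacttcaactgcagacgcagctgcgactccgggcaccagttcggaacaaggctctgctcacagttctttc
Hmces (chr6:87913806-87913975, plus strand): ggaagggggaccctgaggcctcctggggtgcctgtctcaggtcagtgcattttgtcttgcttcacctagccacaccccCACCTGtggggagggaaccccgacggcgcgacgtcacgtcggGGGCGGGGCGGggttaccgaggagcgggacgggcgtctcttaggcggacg
Polh (chr17:46202642-46202811, minus strand): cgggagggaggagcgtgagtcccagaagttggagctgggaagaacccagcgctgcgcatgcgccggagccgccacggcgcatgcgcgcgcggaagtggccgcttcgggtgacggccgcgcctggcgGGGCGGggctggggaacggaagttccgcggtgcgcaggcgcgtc
Apex1 (chr14:50924779-50924948, plus strand): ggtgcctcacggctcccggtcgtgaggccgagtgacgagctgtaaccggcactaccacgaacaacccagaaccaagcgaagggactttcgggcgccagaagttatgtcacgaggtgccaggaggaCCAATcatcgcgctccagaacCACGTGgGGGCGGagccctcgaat
The motifs were searched on both strands of the 250 bases before the start site of all 6 genes. The E-box CAGGTG lay before Neil1 (bases -159 to -154) and Hmces (-92 to -87), in both on the strand opposite to the gene, and in 17.2% of all 32851 promoters. The GC box GGGCGG lay before 5 of the 6 genes, Neil1 being the exception, and in 32.7% of promoters. In Hmces 2 GC boxes share a base, so the capitals run together. The NF-Y box CCAAT lay before Msh6 and Apex1 (33.9% of promoters) and the E-box CACGTG before Apex1 (6.02%). The ETS motif CCGGAAG (6.91%), the E2F motifs TTTCCCGC (0.895%) and TTTGGCGC (0.417%) and the octamer ATTTGCAT (1.60%) were not in these 6 windows as spelled. A match describes the letters only.

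Of 16 measured genes of base excision repair and abasic site handling, 6 rose and 1 fell in KI LN, against 13.8% of all genes higher and 12.2% lower, and their median was 0.18, against -0.02 over all genes. Mbd4, a glycosylase for mispaired uracil and thymine, rose by 2.08 ± 0.18 (limma adjusted p = 4.76e-05), nearly as far as Neil1. Xrcc1, the scaffold of single-strand break repair, rose by 1.03 ± 0.12 (limma adjusted p = 0.000278). In translesion synthesis 4 of 11 genes rose and 0 fell, with a median of 0.25. They included Rev1, a scaffold and deoxycytidyl transferase, at 1.06 ± 0.14 (limma adjusted p = 5e-04), and Polq, polymerase theta, at 0.82 ± 0.18 (limma adjusted p = 0.00781).

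In mismatch repair 1 of 7 genes rose and 0 fell, with a median of 0.20. The gene that rose was Msh3 (0.46 ± 0.15, limma adjusted p = 0.0472), a related mismatch recognition gene. Among 21 genes of the switch break response and end joining 3 rose and 1 fell, with a median of 0.04. The end-joining ligase Lig4 rose by 1.13 ± 0.27 (limma adjusted p = 0.0109) and the Artemis nuclease gene Dclre1c by 0.63 ± 0.16 (limma adjusted p = 0.0145), and the shieldin gene Shld1 was -0.67 ± 0.19 (limma adjusted p = 0.0249). The shares called higher in these last 2 lists were near the 13.8% over all genes. These lists hold the 6 genes themselves and were written with earlier results of these data known.

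**Figure D2:**
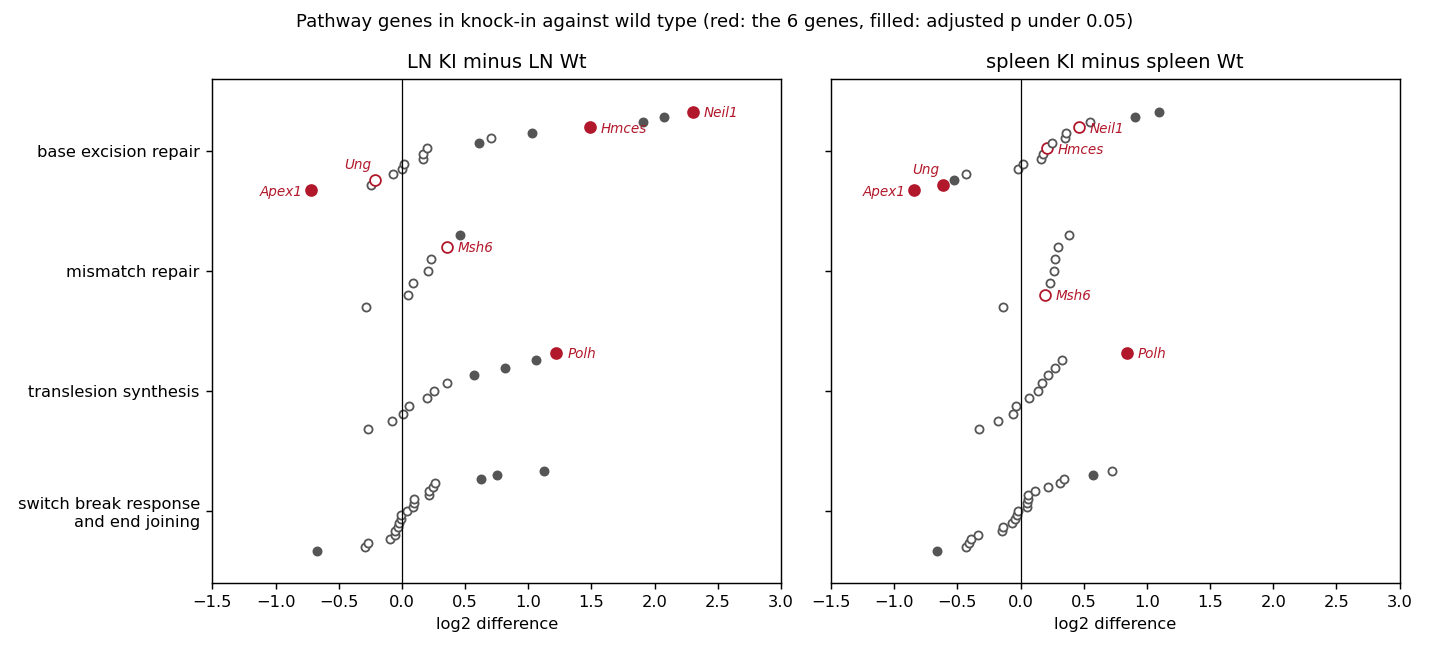
Log2 difference of KI minus Wt (x axis) for every measured gene of 4 pathway lists, LN in the left panel and spleen in the right; each dot is 1 gene, red for the 6 genes described here, filled where the limma adjusted p was under 0.05. Within their lists Neil1 and Polh lie furthest right in LN (2.30 and 1.22), and Apex1 lies furthest left in both tissues (-0.72 and -0.84).

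Cell type markers moved in the same comparison. Of 14 germinal centre markers 10 rose in KI LN and 0 fell, with a median of 2.55, and their summed signal was between 24544 and 31312 in KI nodes and between 6401 and 7187 in Wt nodes. Of 26 proliferation genes 18 rose and 1 fell, with a median of 0.94 and sums between 28317 and 33747 in KI nodes and between 21843 and 22241 in Wt nodes. Among 16 pan B cell markers 10 were higher and 1 lower (sums of 122733 to 153609 in KI nodes and 90843 to 99222 in Wt nodes), plasma cell genes rose in 13 of 14 (160094 to 164594 in KI nodes and 15563 to 19121 in Wt nodes), and pan T cell genes fell in 18 of 19 (54269 to 70690 in KI nodes and 122361 to 132599 in Wt nodes). Of 14 macrophage genes 9 fell and 0 rose, with a median of -1.61 and sums of 1318 to 1322 in KI nodes and 2178 to 3051 in Wt nodes. The part of these shifts in the differences of the 6 genes was not tested. In whole-tissue RNA, more cells of a type and more RNA per cell cannot be told apart.

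The signal of each gene was also set against the summed signal of 3 marker lists, none of which holds any of the 6 genes. These ratios were chosen after seeing the values and carry no test. Against the germinal centre list, Neil1 amounted to 19.3% and 19.0% in KI nodes, to 19.8% and 21.3% in Tg nodes and to 13.4% and 18.8% in Wt nodes. In spleen it was at 16.2% and 17.9% in KI, 19.5% in Tg and 19.7% and 19.6% in Wt. Against the proliferation list, Neil1 was at 17.9% and 16.5% in KI nodes and at 4.31% and 5.51% in Wt nodes, and against the pan B cell list at 3.94% and 3.80% in KI nodes and at 1.06% and 1.21% in Wt nodes. In LN the KI share exceeded the Wt share with each of the 3 lists, narrowly with the germinal centre list and widely with the other two.

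Hmces was at 8.42% and 7.48% of the germinal centre list in KI nodes and at 12.2% and 10.9% in Wt nodes, the lower share being in KI. Against the proliferation list it was at 7.81% and 6.49% in KI nodes and at 3.95% and 3.20% in Wt nodes, the higher share being in KI. Polh was at 3.28% and 3.27% of the germinal centre list in KI nodes and at 7.18% and 4.56% in Wt nodes, but at 4.20% and 4.77% in KI spleens and at 3.98% and 3.97% in Wt spleens. Against the proliferation list Polh was at 3.04% and 2.83% in KI nodes and at 2.32% and 1.34% in Wt nodes. The direction for both genes in LN therefore turned with the list.

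Ung was at 1.05% and 1.23% of the germinal centre list in KI nodes, against 5.03% and 5.78% in Wt nodes, and at 1.80% and 2.51% in KI spleens, against 5.22% and 5.13% in Wt spleens. Against the proliferation list it was at 0.976% and 1.07% in KI nodes, against 1.62% and 1.69% in Wt nodes. In LN the share of Ung was lower in KI than in Wt with both lists. The sums of both lists were themselves higher in KI nodes than in Wt nodes. Any gene that rose less than the list, or did not change, takes a lower share there. Msh6 (5.15% and 5.61% in KI nodes, 16.8% and 17.5% in Wt nodes) and Apex1 (0.547% and 1.11% in KI nodes, 5.32% and 5.16% in Wt nodes) were also at a smaller share of the germinal centre list in KI nodes.

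**Figure D3:**
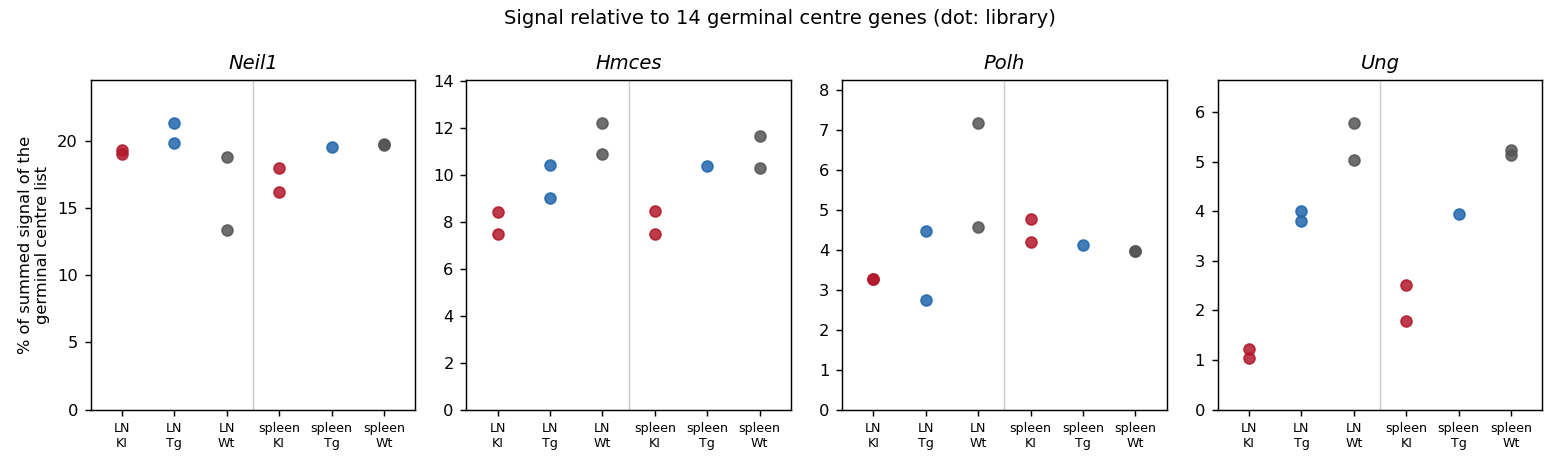
Signal of Neil1, Hmces, Polh and Ung as a percent of the summed signal of 14 germinal centre genes (y axis, linear from 0) in each library, by tissue and genotype; each dot is 1 library. Neil1 lies between 13.4% and 21.3% in all 11 libraries, and Ung lies at 1.05% to 2.51% in the 4 KI libraries, below the other 7.

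In KI spleen the pattern was partly different from that in KI LN: Polh rose, Ung and Apex1 fell, and Neil1, Hmces and Msh6 did not pass the test. That made 1 of the 6 genes higher and 2 lower, against 7.63% of all genes higher and 9.21% lower (16.8% in all), and libraries did not overlap for 5 of the 6, against 66.3% of all genes. Polh read 562 and 486 in KI spleens, against 286 and 297 in Wt spleens. Both KI spleens were above both Wt spleens, and the difference was 0.84 ± 0.25 (limma adjusted p = 0.0484).

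Ung read 240 and 257 in KI spleens, against 375 and 385 in Wt spleens, with replicates close and groups apart. The log2 difference was -0.61 ± 0.14 (limma adjusted p = 0.016), or 0.654 times the Wt level. Apex1 read 179 and 245 in KI spleens and 356 and 396 in Wt spleens, also without overlap. Its difference was -0.84 ± 0.23 (limma adjusted p = 0.0323).

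These spleen calls did not hold with fewer libraries. Leaving out a library or a mouse gave 8 fits, in which Ung lost its call in all 8 (-0.66 to -0.56, adjusted p 0.0654 to 0.134) and Polh in all 8 (0.74 to 0.94, adjusted p 0.0618 to 0.225), and Apex1 in 7 (-1.06 to -0.62, adjusted p 0.0534 to 0.209), all but the fit without both tissues of mouse 6. These fits had fewer libraries, and directions did not turn in any of them.

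Neil1 read 2164 and 1831 in KI spleens and 1417 and 1472 in Wt spleens, a difference of 0.46 ± 0.15 (limma adjusted p = 0.0643). The groups did not overlap, and the gene passed the test when the 4 libraries were fitted alone (adjusted p = 0.0236) and after rescaling without immunoglobulin and haemoglobin genes (0.55, adjusted p = 0.0296). Over 17 alternatives its adjusted p ran from 0.0236 to 0.306. Hmces read 1003 and 863 in KI spleens and 741 and 874 in Wt spleens, with overlap, at 0.21 ± 0.18 (limma adjusted p = 0.458). Msh6 read 1109 and 1029 in KI spleens and 873 and 999.7 in Wt spleens, at 0.19 ± 0.16 (limma adjusted p = 0.445).

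Of the 16 base excision repair genes 2 rose and 3 fell in KI spleen, against 7.63% of all genes higher and 9.21% lower, with a median of 0.19 against 0.01 over all genes. The uracil glycosylase gene Smug1 rose by 1.10 ± 0.18 (limma adjusted p = 0.00349) and Mbd4 by 0.91 ± 0.18 (limma adjusted p = 0.00862), the opposite direction to Ung. In translesion synthesis 1 of 11 rose, Polh itself, and 0 fell (median 0.14). Limma called 0 of 7 mismatch repair genes (2 at an unadjusted p under 0.05, median 0.26). In the switch break list of 21 the checkpoint adaptor Mdc1 rose by 0.57 ± 0.11 (limma adjusted p = 0.00628) and the end-resection gene Rbbp8 was -0.66 ± 0.20 (limma adjusted p = 0.0466), with a median of -0.02. The shares called in the translesion and switch break lists were close to or below those over all genes.

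Markers moved in spleen too. Of 14 germinal centre markers 6 were higher and 0 lower (sums of 10203 to 13377 in KI spleens and 7180 to 7495 in Wt spleens, median 1.29). Among 16 pan B cell markers 5 were higher and 0 lower (183774 to 202207 in KI spleens and 140275 to 149784 in Wt spleens). Plasma cell genes were higher in 9 of 14 cases and lower in 1 (89061 to 140119 in KI spleens and 32431 to 34562 in Wt spleens). Of 11 erythroid genes 2 were higher and 0 lower, with a median of 3.43 (3462 to 26457 in KI spleens and 930 to 1125 in Wt spleens). Pan T cell genes fell in 16 of 19 (30869 to 33739 in KI spleens and 63592 to 67397 in Wt spleens). Of 26 proliferation genes 2 fell and 0 rose, with a median of -0.35 and sums of 16698 to 19079 in KI spleens and 21037 to 26574 in Wt spleens. Of 10 neutrophil genes limma called 0, with 1 at an unadjusted p under 0.05, and their sums ran from 2295 to 7138 in KI spleens and from 6717 to 53739 in Wt spleens. The part of these markers in the results was not tested.

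**Figure D4:**
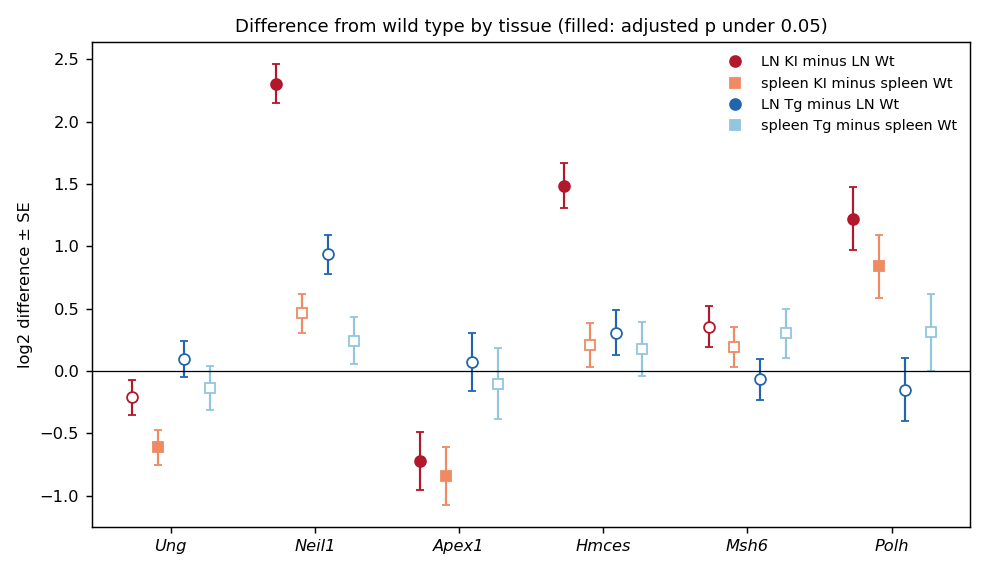
Log2 difference from Wt ± SE (y axis) of each of the 6 genes for KI and Tg in LN (circles) and spleen (squares), from the limma fit; filled symbols have an adjusted p under 0.05. Neil1 (2.30) and Hmces (1.49) stand higher in KI LN than in KI spleen (0.46 and 0.21), Apex1 lies near -0.8 in both KI tissues, and the Tg symbols are all open.

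Whether the KI effect differed between LN and spleen was tested as an interaction, called for 2 of the 6 genes against 0.955% of all genes. For Neil1 the KI effect was 1.84 ± 0.22 larger in LN than in spleen (limma adjusted p = 0.0146), and for Hmces 1.28 ± 0.25 larger (limma adjusted p = 0.0483). The Neil1 call was lost in 3 of 12 fits with a library or mouse left out: without the spleen of KI mouse 6 (1.72, adjusted p = 0.0648), without the spleen of Wt mouse 2 (1.81, adjusted p = 0.054) and without both tissues of mouse 1 (1.71, adjusted p = 0.0759). The Hmces call was lost in 11 of the 12 (0.99 to 1.56, adjusted p 0.064 to 0.241), all but the fit without the LN of KI mouse 6.

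The interaction was not called by limma for Polh (0.38 ± 0.36, adjusted p = 0.694), Ung (0.40 ± 0.20, adjusted p = 0.399), Msh6 (0.16 ± 0.23, adjusted p = 0.815) or Apex1 (0.12 ± 0.33, adjusted p = 0.921). Among the markers the same interaction had a median of 1.32 for germinal centre genes, 1.36 for proliferation genes and -1.74 for macrophage genes, with 1 of 14, 0 of 26 and 6 of 14 genes called and 8, 19 and 11 of them at an unadjusted p under 0.05. Plasma cell genes had a median of 1.24, with 4 of 14 called, and erythroid genes a median of -3.32, with 0 of 11 called by limma and 8 at an unadjusted p under 0.05. The share of all genes under that unadjusted p is not given for this interaction, so the unadjusted counts have no reference share. The part of these markers in the Neil1 and Hmces interactions was not tested. LN and spleen libraries of a mouse come from the same animal, so the tissues are not independent.

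Between tissues of KI mice, Neil1 was 1.42 ± 0.15 higher in LN than in spleen (limma adjusted p = 0.000585) and Hmces 1.24 ± 0.18 higher (limma adjusted p = 0.00245), with 2 of the 6 genes called against 9.27% of all genes. In the same comparison 7 of 14 germinal centre genes, 18 of 26 proliferation genes and 17 of 19 pan T cell genes were higher in LN, and 9 of 16 pan B cell genes, 13 of 14 macrophage genes and 4 of 11 erythroid genes were lower. Their part in these differences was not tested. With the mouse as a fixed term, Polh (0.79, adjusted p = 0.0291) and Msh6 (0.48, adjusted p = 0.018) were called as well. In Wt mice 0 of the 6 genes were called between LN and spleen by limma, against 9.38% of all genes, and 1 had an unadjusted p under 0.05, as did 23.3% of all genes. That gene was Neil1, which read 959 and 1203 in Wt nodes and 1417 and 1472 in Wt spleens (-0.43 ± 0.15, limma adjusted p = 0.119). It was called with the mouse as a fixed term (adjusted p = 0.0272), and over 16 alternatives its adjusted p ran from 0.0272 to 0.769. Neil1 thus stood lower in LN than in spleen in both Wt mice and higher in LN than in spleen in both KI mice.

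In Tg mice none of the 6 genes passed the test in either tissue, where limma called 0% of all genes. In Tg nodes Neil1 read 2202 and 1923, against 959 and 1203 in Wt nodes, so both Tg nodes were above both Wt nodes. The difference was 0.94 ± 0.15, with an unadjusted p of 9.12e-05 and a limma adjusted p of 0.142. It was the 1 of the 6 genes under an unadjusted p of 0.05, as were 4.89% of all genes. On recovered reads edgeR called 0 of the 6 (Neil1 adjusted p = 0.835) and DESeq2 called Neil1 alone (0.95, adjusted p = 0.000952), while over 19 alternatives the adjusted p of Neil1 ran from 0.000952 to 0.881. No fit with a library or mouse left out turned its direction (0.77 to 1.10).

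Hmces read 1001 and 943 in Tg nodes and 879 and 699 in Wt nodes, without overlap, at 0.31 ± 0.18 (limma adjusted p = 0.96). These 2 of the 6 genes were apart, against 27.3% of all genes. The other 4 overlapped between Tg and Wt nodes. Ung (422 and 362 in Tg nodes) differed by 0.10 ± 0.14, Apex1 (408 and 343) by 0.07 ± 0.23, Msh6 (930 and 1330) by -0.07 ± 0.16 and Polh (304 and 403) by -0.15 ± 0.25. Germinal centre genes had a median of 0.79 in Tg LN with 0 of 14 called by limma, 7 of 14 at an unadjusted p under 0.05, and sums of 9025 to 11106 in Tg nodes and 6401 to 7187 in Wt nodes. Macrophage genes had a median of 0.51, with 0 of 14 called by limma and 6 under that unadjusted p. Pan T cell genes had a median of -0.14, with 0 of 19 called by limma and 3 under it. The part of these markers in the differences of the 6 genes was not tested.

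The lone Tg spleen read 346 for Ung, 910 for Hmces, 1710 for Neil1, 1152 for Msh6, 351 for Apex1 and 362 for Polh. Neil1, Hmces, Msh6 and Polh lay above both Wt spleens and Ung and Apex1 below both, as 64.4% of all genes lay outside the range of the Wt pair. The differences ran from -0.13 ± 0.17 for Ung to 0.31 ± 0.31 for Polh, and none had an unadjusted p under 0.05, against 1.51% of all genes. This comparison took its spread from the other groups. A difference of the Tg effect between tissues was called by limma for 0 of the 6 genes and 0% of all genes. Neil1 had an unadjusted p of 0.0166 (0.69 ± 0.24), and 1.84% of all genes were under 0.05.

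The KI and Tg models were compared directly in LN, where 4 of the 6 genes differed, against 26.7% of all genes. KI nodes were higher than Tg nodes in Neil1 by 1.37 ± 0.15 (limma adjusted p = 0.000251), in Polh by 1.37 ± 0.25 (adjusted p = 0.00409) and in Hmces by 1.18 ± 0.18 (adjusted p = 0.00129). Apex1 was lower, at -0.79 ± 0.23 (limma adjusted p = 0.0287). All 6 genes were without overlap between KI and Tg nodes, as were 62.7% of all genes. Apex1 lost its call without the LN of KI mouse 5 (-0.46, adjusted p = 0.23) or of Tg mouse 3 (-0.67, adjusted p = 0.119) and by edgeR (-0.77, adjusted p = 0.0775), and Polh without both tissues of mouse 5 (1.19, adjusted p = 0.0533). Msh6 (0.42 ± 0.16, limma adjusted p = 0.078) gained a call without the LN of Tg mouse 4 (0.68, adjusted p = 0.00997), and after rescaling without immunoglobulin and haemoglobin genes (0.51, adjusted p = 0.0291), which moved the median of all genes to 0.10, against 0.01 as deposited. Ung was at -0.31 ± 0.14 (limma adjusted p = 0.133), and passed the test under quantile normalisation (-0.43, adjusted p = 0.0463).

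Between KI and Tg nodes, 11 of 14 germinal centre genes, 13 of 14 plasma cell genes, 16 of 26 proliferation genes and 9 of 16 pan B cell genes were higher in KI, with 1 proliferation and 1 pan B cell gene lower. Pan T cell genes were lower in KI for 15 of 19 and macrophage genes for 12 of 14. Their part in the differences of the 6 genes was not tested.

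In spleen, KI minus Tg gave 0 of 6 calls by limma, against 7.71% of all genes, with Ung (-0.48 ± 0.17) and Apex1 (-0.74 ± 0.28) under an unadjusted p of 0.05, as were 26.1% of all genes. The KI and Tg comparisons with Wt share the Wt libraries.

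Across the 6 groups the order of mean levels differed by gene. Neil1 ran from LN KI (5358 ± 975, SD, n = 2) through LN Tg (2062 ± 198), spleen KI (1997 ± 236), spleen Tg (1710, n = 1) and spleen Wt (1444 ± 38.9) to LN Wt (1081 ± 172), and of these neighbours LN Tg and spleen KI overlapped. Hmces was highest in LN KI (2236 ± 565) and lay between 789 and 972 in the means of the other 5 groups. Polh was highest in LN KI (914 ± 158), then in spleen KI (524 ± 53.2), which overlapped with LN Wt (404 ± 158), and lowest in spleen Wt (292 ± 8.05).

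Msh6 was likewise highest in LN KI (1495 ± 166) and lowest in spleen Wt (936 ± 89.8), and the range over all libraries was 1.85-fold. Apex1 fell into a higher set of 4 groups with means of 351 to 376 and a lower set of LN KI (221 ± 70.7) and spleen KI (212 ± 46.5), whose libraries overlapped each other. Ung was lowest in spleen KI (248 ± 11.6) and next lowest in LN KI (316 ± 19.1), and highest in LN Tg (392 ± 42.2), which overlapped with spleen Wt (380 ± 6.76).

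The genes whose profiles over the 11 libraries were nearest, by the root mean square (RMS) difference of log2 values centred on each gene's mean, are given as a description, since the libraries share mice and depth. Nearest to Neil1 were Car13, a carbonic anhydrase gene, at 0.17 and Smco4 at 0.19, where the median over all genes was 0.79. The nearest genes lie below such a median by construction, so it is given for scale only. For Hmces they were the DNA helicase gene Helq at 0.12 and Mtf2, of the Polycomb machinery, at 0.12 (median 0.59). For Polh they were Lca5 at 0.17 and Kifap3 at 0.18 (median 0.63), and for Apex1 Them6 at 0.14 and Epb41l4aos at 0.15 (median 0.48). Ung had Ddx19b at 0.08 and Strap at 0.09 (median 0.33), and Msh6 had Zbtb1 at 0.09 and Cnot6l at 0.10 (median 0.33).

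Neighbouring genes bear on the reads counted. In GENCODE M21, 61.7% of the exonic bases of Apex1 (877 of 1422, chromosome 14) are also exonic in Pip4p1 on the opposite strand. The strand setting of the counting was not given in the sources used here. Whether reads in the shared bases were told apart, mixed or left out is therefore not known. Pip4p1 had a difference of -0.14 ± 0.12 in KI LN (limma adjusted p = 0.411) and of -0.31 ± 0.12 in KI spleen (limma adjusted p = 0.0965). Osgep starts 75 bases from Apex1 in the other direction and differed by -0.24 ± 0.14 in KI LN (limma adjusted p = 0.245) and by -0.05 ± 0.14 in KI spleen (limma adjusted p = 0.826). Xpo5, which starts 137 bases from Polh in the other direction, differed by -0.04 ± 0.13 in KI LN (limma adjusted p = 0.854), where Polh rose. Hmces shares 6.30% of its exonic bases with the antisense gene Gm26636, which was not analysed here, Msh6 shares 0.782% with Fbxo11, and Neil1, Polh and Ung share none with a neighbour.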

How the data were processed

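RNA came from dissociated whole-tissue cells and libraries from a SMARTER kit, per the labels' protocols. Per the submitters' processing notes, the tools were STAR 2.5, Subread 1.4.6 with featureCounts, FastQC 0.11.5 and DESeq2 1.26.0, on GRCm39. No source used here gives the strand setting, annotation or gene filter. The deposited values are a normalised signal, which is a read count that the authors divided by 1 factor per library, as read from the values of 10885 genes: in all 11 libraries 100% of values were whole multiples of 1 step within 0.05 reads. Each gene reached at least 109.3 in some library. Recovered reads ran from 11128568 to 21067988 in LN and from 18994455 to 24110325 in spleen; count-based tests were run on LN alone.

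Log2(value + 1) was fitted with limma-trend 3.58.1 (R 4.3.3, robust) as 6 group means over 11 libraries, with 5 residual degrees of freedom and 2-sided tests. Benjamini-Hochberg adjustment ran over all genes, and an adjusted p under 0.05 was called. Each gene had 1 spread shared by all 6 groups, so the SE and p of the KI comparisons also rest on the closer Tg and Wt pairs. For the single Tg spleen library, the spread of the other groups was assumed. Replicates are separate mice, and the subject label pairs the tissues of a mouse: over genes, the LN and spleen deviations of a mouse correlated at 0.900 in KI and 0.403 in Wt. The fit was tested on simulated data. Alternatives were pseudocounts of 0.1 and 5, a minimum mean of 200, TMM (edgeR 4.0.16), rescaling without 197 immunoglobulin and haemoglobin genes, quantile normalisation, the compared groups alone, the mouse as a random (statmod 1.5.0, correlation 0.0168) or fixed term, no trend, each library or mouse left out, and edgeR and DESeq2 1.42.0 on recovered LN reads.

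The members, gene lists and tests were chosen with earlier results of these data known. Named were the 6 genes, up to 3 called genes of smallest p per pathway list in each KI comparison, and the 2 nearest profiles of each gene; another gene of that rule is not reported here. GENCODE M21 matched 10875 identifiers.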

Additional observations from a re-analysis of the deposited data

Results flagged for a closer look

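The knock-in effect differed between tissues by the limma interaction test for Neil1, whose KI minus Wt difference was 1.84 larger on the log2 scale in LN than in spleen, and for Hmces, whose difference was 1.28 larger in LN than in spleen. Both were higher in 2 of 2 KI nodes than in either Wt node, and KI and Wt nodes did not overlap for 66.8% of all genes. That comparison within LN does not bear on the difference between tissues. The interaction call was lost under 4 of 22 alternatives for Neil1 and under 14 of 22 for Hmces. Groups of 2 libraries were too small to look for a library far from the others.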

How the results depend on the processing

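Over all comparisons of the 6 genes and every alternative run, 925 values kept their direction and side of the threshold, 66 lost a call, 14 gained one and 33 turned in direction. With only the libraries of the groups compared in the fit, the number of the 6 genes called was 2 for KI minus Wt in LN, 1 for the KI interaction and 4 for LN minus spleen in KI, and a minimum mean of 200 gave 1 for the interaction. Without the trend and robust steps it was 0 for the interaction and 1 for KI minus Wt in spleen. DESeq2 gave 1 for Tg minus Wt in LN. As a replicate block, the mouse as a fixed term gave 4 for LN minus spleen in KI and 1 in Wt, and the mouse as a random term changed no such count. With a library or mouse left out the count ran from 2 to 4 for KI minus Wt in LN, from 0 to 1 for KI minus Wt in spleen, from 2 to 5 for KI minus Tg in LN, from 0 to 2 for the interaction and from 0 to 1 for LN minus spleen in Wt. The cause of these changes was not tested beyond the fewer libraries of such fits.

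Directions turned only for differences that were not called. Quantile normalisation put Ung at 0.036 and Apex1 at 0.011 for LN minus spleen in Wt. With libraries left out, LN minus spleen in KI ran from -0.29 to 0.37 for Apex1, and the KI interaction from -0.21 to 0.45 for Apex1 and from -0.055 to 0.82 for Polh. Tg minus Wt in LN ran from -0.013 to 0.21 for Ung, from -0.32 to 0.19 for Msh6, from -0.052 to 0.20 for Apex1 and from -0.56 to 0.26 for Polh, and the Tg interaction from -0.15 to 0.42 for Hmces and from -0.0082 to 0.35 for Apex1. LN minus spleen in Wt ran from -0.32 to 0.25 for Hmces, from -0.26 to 0.10 for Apex1 and from -0.026 to 0.85 for Polh, and KI minus Tg in spleen from -0.075 to 0.14 for Hmces.

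With 2 libraries a group, or 1, the number of mice limits precision. Among the 6 genes Apex1 rested on the fewest recovered reads, 156 in its lowest library, and Hmces, Msh6 and Neil1 on at least 545.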
